A study of Mus musculus with 4 samples.

Results

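The genes Id2, Id3, Tcf3 and Tcf12 were described in CD4 T cells recovered from 2 lymphocyte-deficient mice. They were taken by gene name and are 4 of the 32285 genes in the expression matrices. Donors were B6.H2g7 mice (strain label B6.NOD-(D17Mit21-D17Mit10)/LtJ) aged 6 to 8 weeks, whose splenic CD4 T cells, 5000000 per transfer, had been given to NOD.Rag1null hosts. On day 14 live cells positive for CD4 and TCRβ were sorted from each host's spleen. NOD.Rag1null mice make no mature T or B cells of their own but keep myeloid cells, so the T cells all came from the donors. The labels name 2 donors and 2 separate hosts and do not say whether donor cells were pooled, and every cell had been through the transfer, so there is no untransferred group.

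Each host gave a 5′ single-cell expression library and a matched receptor library. Cells were kept with at least 500 genes detected, at most 10% of unique molecular identifiers (UMIs, 1 per captured RNA molecule) from mitochondrial genes and exactly 1 receptor β chain contig, which left 5993 cells in mouse 1 and 6332 in mouse 2. The V gene of that contig defined 3 classes. TRBV26 (the segment known as Vβ3, named in the study's title) had 2084 cells in mouse 1 and 1960 in mouse 2, TRBV23 had 959 and 725, and all other V genes together had 2950 and 3647. Cells were also split by clonotype, meaning cells of 1 mouse with the same β V gene, J gene and CDR3 nucleotides, into expanded clonotypes (2 or more cells) and single ones (1 cell). A last split was by Foxp3, with 1 or more UMIs (Foxp3-positive) or none (Foxp3-negative). A cell with no Foxp3 UMI may still express the gene.

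E proteins are helix-loop-helix transcription factors that bind DNA as dimers. Tcf3 and Tcf12 encode E proteins, and both help to set gene expression and receptor gene rearrangement in developing T cells. Id2 and Id3 encode inhibitor of DNA binding proteins, which pair with E proteins but lack the basic region that contacts DNA, so a bound E protein is held off its sites. In mouse CD4 T cells Id2 is known from effector cells and Id3 from naive and follicular helper cells, and regulatory T cells need Id2 and Id3 to persist. In the GRCm38 build of the mouse genome Id3 (ENSMUSG00000007872) lies on chromosome 4 from 136143497 to 136145755 on the plus strand. Id2 (ENSMUSG00000020644) lies on chromosome 12 from 25093799 to 25097140, Tcf3 (ENSMUSG00000020167) on chromosome 10 from 80409514 to 80433647 and Tcf12 (ENSMUSG00000032228) on chromosome 9 from 71842688 to 72111871, all on the minus strand. Tcf12 spans 269.184 kb, against 2.259 kb for Id3.

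The kept cells held 38725969 UMIs in mouse 1 and 44796902 in mouse 2, with a median of 5596 and 6219.5 per cell. Of the barcodes, 166 occurred in both libraries, 58 of them among kept cells of both, and none of those 58 carried the same β chain in both. All 5 CD4 T cell markers (Cd3e, Cd3d, Trac, Trbc2 and Cd4) were detected in every class, with a summed level of 4192 to 4556 CPM (UMIs of a gene per 1000000 UMIs of the group). Cd8a, which defines CD8 T cells, had no UMI in any class. The other summed marker levels by class and mouse were 8.25 to 10.1 CPM for the CD8 pair (all from Cd8b1), 1.24 to 6.67 CPM for 4 B cell genes, 7.11 to 20.1 CPM for 5 myeloid genes, 1.01 to 8.48 CPM for 2 NK genes and at most 0.414 CPM for 3 dendritic genes. A pair of globin genes reached 260.8 CPM in TRBV23 cells of mouse 2 and 50.1 CPM in TRBV26 cells of mouse 2, against 2.56 to 7.05 CPM in the other 4 sums.

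Id3 was the member that differed most between V gene classes. It was counted at 317.0 CPM in mouse 1 and 292.7 CPM in mouse 2 among TRBV26 cells, at 279.0 and 273.6 CPM among TRBV23 cells, and at 107.2 and 89.9 CPM among other cells. The TRBV26 and TRBV23 values lay above both values of the other cells, a description from 2 mice, with no share over all genes to set it against. An Id3 UMI was seen in 42.9% of TRBV26 cells of mouse 1 (95% exact interval 40.7% to 45.0%) and 47.8% in mouse 2 (45.6% to 50.04%), against 20.2% (18.7% to 21.7%) and 20.02% (18.7% to 21.4%) of other cells. With each cell thinned to 2000 UMIs the shares were 30.5% and 31.9% of TRBV26 cells, 28.2% and 29.3% of TRBV23 cells, and 11.7% and 10.5% of other cells, the same order at equal depth. These intervals cover counting error only. No cell type in the sort is known to lack these genes, so a share due to free RNA was not set aside.

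UMIs were summed per mouse and class and compared with edgeR's quasi-likelihood test, with the mouse as a block and Benjamini-Hochberg adjustment over 12632 genes. Id3 rose in TRBV26 cells against other cells by 1.64 on the log2 scale (SE 0.0527, adjusted p = 1.12e-08) and in TRBV23 cells against other cells by 1.499 (SE 0.0558, adjusted p = 5.91e-08). In each mouse alone the TRBV26 difference was 1.56 and 1.69. TRBV26 cells had a median of 1.85% and 2.09% mitochondrial UMIs, against 1.47% and 1.47% in other cells, and the part of this in the result was not tested. Mki67 and Top2a summed to 266.1 and 154.0 CPM in TRBV26 cells against 391.2 and 282.2 CPM in other cells, and without the cluster led by Hist1h2ae the Id3 difference was 1.66 (adjusted p = 1.60e-13). Foxp3-positive cells were 8.49% and 13.0% of TRBV26 cells against 22.3% and 22.1% of other cells, and the difference within Foxp3-negative cells is given with the Foxp3 results. The background share of genes called in either direction was 19.4% for TRBV26 cells (8.8% higher and 10.6% lower) and 13.4% for TRBV23 cells (6.39% higher and 7.05% lower), and 2 of the 4 members were called in each comparison. With the mouse as a block, the p-values measure how the class differences varied between these 2 hosts, not how their levels differed. That spread had 2 residual degrees of freedom of its own. A prior of 9.52 degrees of freedom came from all genes, so most of the estimate was borrowed. A permutation of 2 mice alone could not pass 0.05.

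Tcf3 was the other member called, in the opposite direction. Its level was 66.8 and 68.8 CPM in TRBV26 cells, 61.2 and 64.4 CPM in TRBV23 cells, and 78.9 and 78.8 CPM in other cells. Tcf3 fell by 0.21 in TRBV26 cells (SE 0.0527, adjusted p = 0.0133) and fell by 0.32 in TRBV23 cells (SE 0.0622, adjusted p = 0.00485) against other cells. These are small differences, and both calls were lost without the mouse block (adjusted p = 0.152 and 0.0632), with DESeq2 (0.319 and 0.0849) and with cells thinned to 2000 UMIs (0.412 and 0.604), though the direction was kept.

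Id2 and Tcf12 were close in the 3 classes. Id2 averaged 316.3 ± 9.17 CPM in TRBV26 cells, 307.0 ± 27.4 CPM in TRBV23 cells and 298.5 ± 18.4 CPM in other cells (SD, n = 2 mice). Tcf12 averaged 85.7 ± 2.63 CPM, 81.7 ± 6.18 CPM and 87.1 ± 6.92 CPM in the same order of classes. Neither was called, with log2 differences of 0.09 (SE 0.0438, adjusted p = 0.196) for Id2 and -0.02 (SE 0.0632, adjusted p = 0.883) for Tcf12 in TRBV26 against other cells. The Id2 call depended on which cells were counted. With 1 cell drawn per clonotype, Id2 was 0.33 higher in TRBV26 cells than in other cells (adjusted p = 7.57e-04) and 0.26 higher in TRBV23 cells (adjusted p = 0.00848), with thinned cells it was 0.25 higher in TRBV26 cells (adjusted p = 0.00569), and without the cluster led by Hist1h2ae it was 0.14 higher in TRBV26 cells (adjusted p = 0.0335). Tcf12 in TRBV23 cells was likewise called at 1 cell per clonotype, at -0.27 (adjusted p = 0.0393), against -0.09 with all cells.

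TRBV26 and TRBV23 cells were then set against each other. None of the 4 members was called by edgeR, where 0.0475% of all genes were (0.0237% higher and 0.0237% lower), and at an unadjusted p under 0.05 edgeR had 1 member, Id3 (unadjusted p = 0.0251). The TRBV26 minus TRBV23 difference was 0.14 for Id3 (SE 0.0537, adjusted p = 0.969), 0.04 for Id2 (SE 0.0468), 0.11 for Tcf3 (SE 0.0654) and 0.07 for Tcf12 (SE 0.0751). DESeq2 also called none of the 4.

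**Figure D1:**
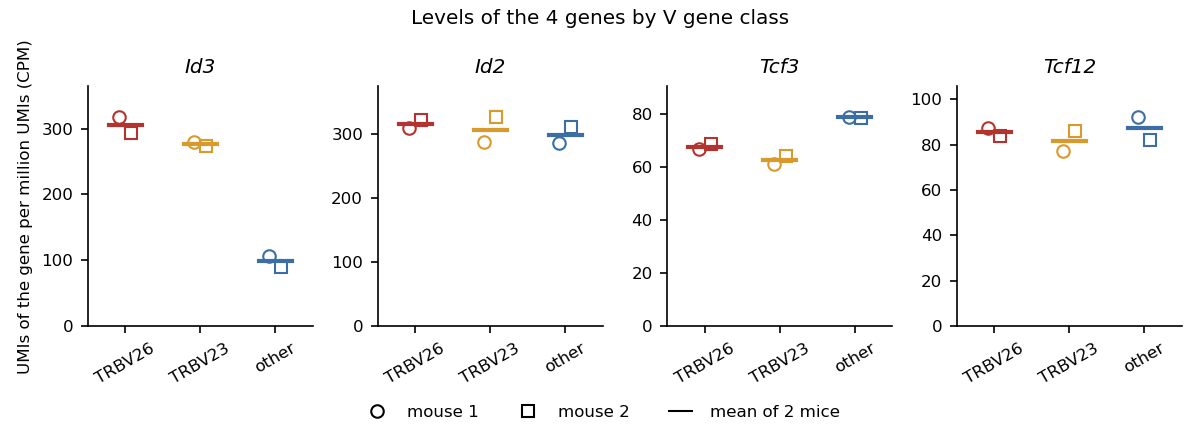
Levels of the 4 genes in CPM (vertical axes, each from 0) by V gene class, with 1 circle (mouse 1) and 1 square (mouse 2) per class and a bar at the mean. Id3 sits at 273.6 to 317.0 CPM in TRBV26 and TRBV23 cells and at 89.9 to 107.2 CPM in other cells, while Id2 and Tcf12 values of the classes overlap and Tcf3 is slightly lower in TRBV26 and TRBV23 cells.

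The balance of the 2 inhibitor genes was read as the ratio of Id3 to Id2 UMIs, compared across classes only, since levels of different genes are not compared here. The ratio was 1.02 and 0.907 in TRBV26 cells, 0.970 and 0.838 in TRBV23 cells, and 0.376 and 0.289 in other cells. Its order followed Id3, since the class means of Id2 lay between 298.5 and 316.3 CPM. In cells thinned to 2000 UMIs, both genes were seen in 11.2% and 13.2% of TRBV26 cells, where the product of the separate shares would give 11.4% and 12.6%. In other cells they were seen together in 3.34% and 3.00%, where the product gives 3.89% and 3.64%. In TRBV26 cells Id3 and Id2 were thus seen together about as often as their separate shares give. In other cells they were seen together somewhat less often than that in both mice, a description with no test.

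Among single V genes, 12 had at least 100 kept cells in each mouse. Id3 averaged 304.9 ± 17.2 CPM for TRBV26, 276.3 ± 3.8 CPM for TRBV23, and next 133.6 ± 2.19 CPM for cells called TRBV12-2+TRBV13-2 (SD, n = 2 mice). The other 9 V genes ran down to 78.8 ± 37.0 CPM for TRBV14, with neighbours in the order mostly closer than their spread. The lowest TRBV23 value (273.6 CPM) lay above the highest value of any V gene below it (154.4 CPM, TRBV5 in mouse 1). This is a description from 2 mice, with no share over all genes to set it against. Tcf3 had its lowest 2 means in TRBV23 (62.8 CPM) and TRBV26 (67.8 CPM), next to 69.8 CPM in TRBV13-3, and its highest in TRBV19 (84.9 CPM). Id2 had no such order. It ran from 392.6 ± 45.8 CPM in TRBV1 to 249.7 ± 60.3 CPM in TRBV5, with TRBV26 and TRBV23 in the middle.

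**Figure D2:**
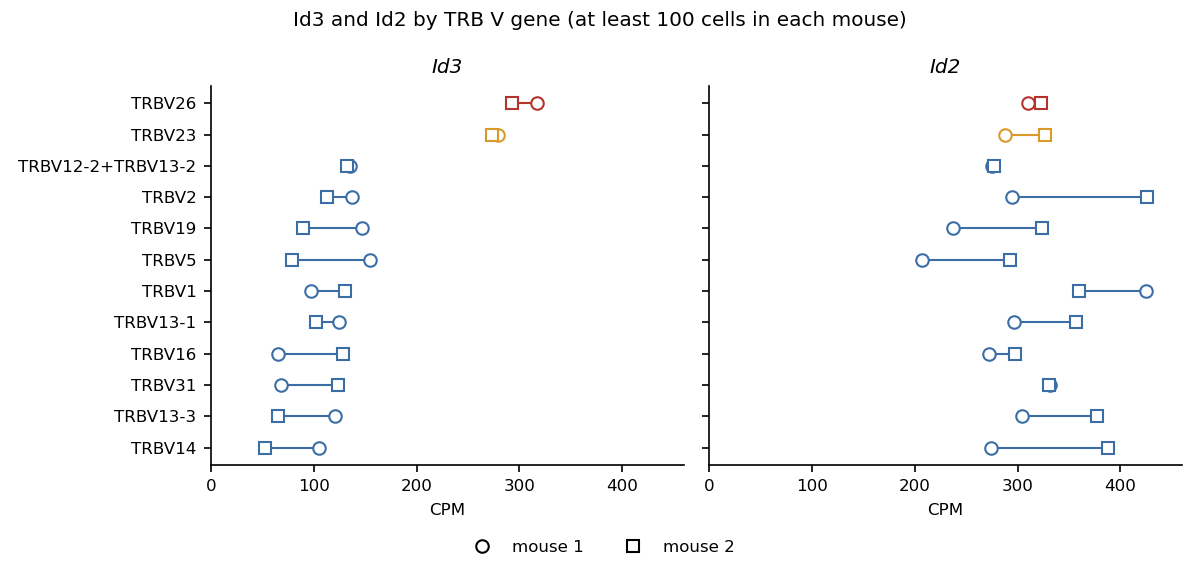
Id3 (left) and Id2 (right) in CPM (horizontal axes, from 0) for the 12 V genes with at least 100 kept cells in each mouse, ordered by mean Id3, with a circle for mouse 1, a square for mouse 2 and a line joining them. TRBV26 and TRBV23 stand apart from the other 10 V genes in Id3, all of which lie at or below 154.4 CPM, and lie within the others in Id2.

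Across these V genes the genes most like Id3, by Pearson correlation of log2(CPM + 1) over 24 sums (12 V genes in each of 2 mice, centred within mouse), were Smco4 (0.900), B630019A10Rik (0.897), Tcf7 (0.894), Maz (0.890) and Asb2 (0.883), of 6579 genes. Those most like Id2 were 1110008P14Rik (0.736), Cpsf2 (0.716), Tspo (0.713), Prr13 (0.707) and Dhx30 (0.695). Id3 itself had a correlation of -0.24 with Id2, -0.65 with Tcf3 and 0.10 with Tcf12. The sums of 1 mouse share a library and TRBV26 and TRBV23 weigh heavily in these values, which are a description. Since the 5 genes were picked for following Id3 over these V genes, their own differences between TRBV26 and other cells, between 0.31 (Maz) and 2.21 (B630019A10Rik) on the log2 scale, are part of that choice. For the 5 genes most like Id2 the differences ran between -0.10 (Cpsf2) and 0.09 (Dhx30).

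Genes around the E proteins were taken as lists of 14. Of partners and cofactors, 10 passed the filter on low counts in the test of TRBV26 against other cells, and 2 rose, 0 fell and 8 were not called, with a median log2 difference of 0.10 against 0.0021 over all genes tested. The share of all genes was 8.8% higher and 10.6% lower, so the count of partners is near the background. Lmo4, which encodes an adaptor of helix-loop-helix complexes, stood at 13.3 and 15.8 CPM in TRBV26 cells against 7.06 and 9.28 CPM in other cells and rose by 0.83 (SE 0.129, adjusted p = 8.09e-04), a call lost with V genes as separate classes (0.82, adjusted p = 0.0767). Lyl1 was called at about 1 CPM (1.03 and 0.958 CPM in TRBV26 cells, 0.303 and 0.303 CPM in other cells), and its call was lost without the block, with DESeq2 and with 1 cell per clonotype (adjusted p = 0.0674, 0.444 and 0.0702). Id1, Id4, Tal1 and Bhlhe41 did not pass the filter.

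Of known E-protein targets, 10 were tested, 4 rose (Notch1, Cxcr5, Cdkn1a and Cd4, whose protein was also used in the sort), 3 fell (Foxo1 and Socs3 among them) and 3 were not called, with a median of 0.06. Of all genes in that test, 8.8% were called higher and 10.6% lower. Cxcr5, the follicular homing receptor, was at 87.8 and 86.3 CPM in TRBV26 cells and 39.2 and 31.4 CPM in other cells, a difference of 1.32 (SE 0.0725, adjusted p = 3.59e-07). Socs3, an inhibitor of cytokine signalling, was at 38.5 and 37.4 CPM in TRBV26 cells and 73.1 and 74.6 CPM in other cells, a difference of -0.96 (SE 0.0688, adjusted p = 2.61e-06). These targets are activated by E proteins in some cases and repressed in others, and the list did not move one way.

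Known inputs to the Id genes, such as receptor signal, TGF-β, cytokine and lineage factors, were all tested, and 9 rose, 4 fell and 1 was not called, with a median of 0.22. The background in the same test was 8.8% of all genes higher and 10.6% lower. Tcf7, a factor of naive and follicular helper cells, was at 573.9 and 643.9 CPM in TRBV26 cells against 253.8 and 279.5 CPM in other cells and rose by 1.19 (SE 0.0398, adjusted p = 1.12e-08). Smad7, a feedback inhibitor of TGF-β signalling, was at 28.7 and 27.4 CPM in TRBV26 cells against 48.8 and 48.2 CPM in other cells and fell by 0.79 (SE 0.0666, adjusted p = 9.19e-06). Between TRBV26 and TRBV23 cells no gene of the 3 lists was called by edgeR.

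Clonotype size moved with Id3 inside the TRBV26 class. Single TRBV26 clonotypes had 402.1 and 343.2 CPM of Id3, and the level was 307.1 and 262.0 CPM in clonotypes of 2 to 4 cells, 106.5 and 163.3 CPM in those of 5 to 19 cells, and 40.8 and 13.8 CPM in those of 20 or more. Each step down held in both mice. The last step rests on few clones, 3 in mouse 1 (80 cells) and 1 in mouse 2 (59 cells). In other cells the same sizes gave 120.6 and 95.03 CPM, 158.2 and 107.0 CPM, 105.2 and 110.1 CPM, and 68.3 and 65.6 CPM. At 20 or more cells both TRBV26 values were below both values of the other cells, the reverse of the order in single clonotypes. In mouse 1, 1 of the 3 TRBV26 clones (20 cells) was 90% Foxp3-positive, with Id3 at 4.33 CPM. The remaining TRBV26 clones of mouse 1 were at 53.6 and 68.2 CPM. The median of the 16 clones of that size among other cells of mouse 1 was 55.4 CPM.

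Expanded TRBV26 clonotypes as a whole had 224.4 and 220.1 CPM of Id3, against 402.1 and 343.2 CPM in single ones, and Id3 fell by 0.74 (SE 0.0873, adjusted p = 7.01e-05, edgeR over 11821 genes). The fall was -1.75 when only clonotypes of 5 or more cells counted as expanded and -0.45 with 1 cell drawn per clonotype, both still called (adjusted p = 0.00377 and 6.20e-04). Id2 fell too, at 260.2 and 272.9 CPM in expanded against 355.4 and 357.5 CPM in single TRBV26 clonotypes, a log2 difference of -0.42 (SE 0.0673, adjusted p = 8.20e-04), a call lost without the mouse block (adjusted p = 0.0823). Thus 2 of the 4 members were called, where 7.55% of all genes were (4.55% higher and 2.99% lower). Tcf3 (0.02) and Tcf12 (-0.19, adjusted p = 0.216) were not called.

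In other cells the pattern was another. Id2 was higher in expanded clonotypes, at 305.8 and 327.7 CPM against 233.4 and 278.0 CPM in single ones, a rise of 0.29 (SE 0.0656, adjusted p = 0.00288), again lost without the block (adjusted p = 0.0630). Tcf12 fell, with 83.8 and 73.0 CPM in expanded against 113.2 and 101.4 CPM in single clonotypes, a difference of -0.47 (SE 0.0734, adjusted p = 1.15e-04), and at 1 cell per clonotype the difference was -0.26 and no longer called (adjusted p = 0.0774). Id3 was not called (-0.19, adjusted p = 0.165), nor was Tcf3 (-0.02). The background was 23.6% of genes called (11.6% higher and 12% lower). Of the lists described above, partners had 0 rises and 0 falls with size in TRBV26 cells, targets 1 and 1, and inputs 3 (Prdm1, Tbx21 and Smad7) and 1 (Tcf7). In other cells partners had 1 rise and 2 falls, targets 5 and 4, and inputs 4 and 5.

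The difference between the 2 size effects was tested in the same fit, where 10.9% of all genes were called (5.83% with a higher and 5.06% with a lower effect in TRBV26 cells). The Id2 effect was 0.72 lower in TRBV26 cells than in other cells (-0.72, SE 0.0940, adjusted p = 8.88e-05), and the Id3 effect 0.55 lower (-0.55, SE 0.128, adjusted p = 0.00872). The Id3 call was lost without the block (adjusted p = 0.189) and with clonotypes of 5 or more cells as expanded (-1.35, adjusted p = 0.0647). For Tcf3 and Tcf12 the difference was not called. In TRBV23 cells, described with no test of their own, Id3 was at 166.0 and 200.2 CPM in expanded clonotypes and 410.1 and 336.7 CPM in single ones, per-mouse differences of -1.30 and -0.75. Foxp3-positive cells made up 11.1% and 17.5% of expanded and 6.32% and 9.81% of single TRBV26 clonotypes, but 16.8% and 16.6% of expanded and 37.7% and 36.1% of single clonotypes in other cells. The part of these shares in the size effects was not tested. The sum of the cell division genes Mki67 and Top2a was 355.7 and 219.4 CPM in expanded against 183.7 and 108.6 CPM in single TRBV26 clonotypes, but 386.6 and 281.9 CPM in expanded against 402.9 and 282.8 CPM in single clonotypes of other cells. Median mitochondrial UMIs over all classes were 1.52% and 1.503% in expanded against 1.82% and 1.93% in single clonotypes, and their part in the size effects was not tested. Without the cluster led by Hist1h2ae the size effect on Id3 in TRBV26 cells was -0.59 (adjusted p = 2.01e-05).

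**Figure D3:**
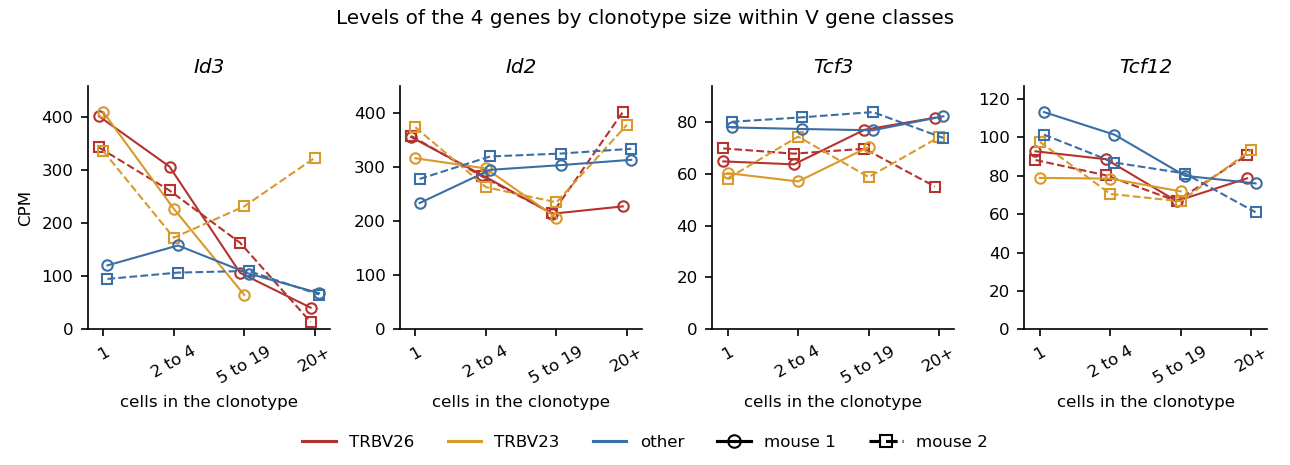
Levels of the 4 genes in CPM (vertical axes, from 0) against the number of cells in the clonotype (1, 2 to 4, 5 to 19, 20 or more), with colour for V gene class, circles and solid lines for mouse 1 and squares and dashed lines for mouse 2. TRBV26 Id3 goes down at each size in both mice to 40.8 and 13.8 CPM, and the last TRBV23 point is 1 clonotype of mouse 2 at 323.7 CPM.

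Single large clonotypes showed how far Id3 could vary between clones of 1 mouse. Each mouse had 19 clonotypes of 20 or more cells, in which Id3 ran from 0 to 268.6 CPM with a median of 53.6 CPM in mouse 1, and from 0 to 348.9 CPM with a median of 68.5 CPM in mouse 2. Id2 ran from 112.7 to 529.3 CPM in mouse 1 and from 141.9 to 483.6 CPM in mouse 2, and was at 0 in none of these clonotypes. Id3 and Id2, as log2(CPM + 1), had a Pearson correlation over these clonotypes of 0.21 in mouse 1 and 0.22 in mouse 2. The Spearman correlation was 0.067 and 0.195, so the relation was weak or near absent, and it is given as a description. The CDR3 nucleotides of the clones with the highest and the lowest Id3, of the largest TRBV26 clone in each mouse and of the only large TRBV23 clone are shown because they identify the clones that span the Id3 range. They were read from the deposited contigs, 5′ to 3′, with the first and last codon in capitals, and their V and J segments lie on chromosome 6.
Mouse 1 highest Id3, TRBV13-3 with TRBJ2-4: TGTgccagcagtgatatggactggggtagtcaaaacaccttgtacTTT
Mouse 1 lowest Id3, TRBV29 with TRBJ2-1: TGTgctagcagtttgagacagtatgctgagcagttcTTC
Mouse 1 largest TRBV26 clone, with TRBJ2-4: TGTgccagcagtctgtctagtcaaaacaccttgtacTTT
Mouse 2 highest Id3, TRBV3 with TRBJ2-3: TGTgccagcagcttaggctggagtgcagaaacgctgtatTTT
Mouse 2 lowest Id3, TRBV20 with TRBJ2-7: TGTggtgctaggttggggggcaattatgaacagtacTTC
Mouse 2 largest TRBV26 clone, with TRBJ2-5: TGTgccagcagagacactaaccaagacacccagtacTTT
Mouse 2 only large TRBV23 clone, with TRBJ2-3: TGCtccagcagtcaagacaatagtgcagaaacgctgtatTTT

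The TRBV13-3 clone of mouse 1 had 27 cells and 59 Id3 UMIs, or 268.6 CPM, with 200.3 CPM of Id2. The TRBV29 clone of mouse 1 had 50 cells and no Id3 UMI in 352657 UMIs, which allows up to 8.51 CPM at a limit of 3 counts, yet 187.2 CPM of Id2. In mouse 2 the TRBV3 clone had 24 cells and 41 Id3 UMIs (348.9 CPM), and the TRBV20 clone had 53 cells, no Id3 UMI in 373783 UMIs (up to 8.03 CPM) and 208.7 CPM of Id2. So clones without an Id3 UMI still held Id2. The largest TRBV26 clones had 53.6 CPM of Id3 in 36 cells of mouse 1 and 13.8 CPM in 59 cells of mouse 2, far below the TRBV26 means. The TRBV23 clone of 42 cells had 323.7 CPM of Id3 and 378.3 CPM of Id2, above the mean of its class in both. Each clonotype was defined by its β chain alone and within 1 host, so none of these differences has a replicate.

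Id3 and Id2 were both lower in Foxp3-positive than in Foxp3-negative cells. Among TRBV26 cells, Id3 was at 50.005 and 35.3 CPM in Foxp3-positive and 351.3 and 345.0 CPM in Foxp3-negative cells. Among TRBV23 cells it was at 62.4 and 39.2 CPM in Foxp3-positive and 309.4 and 314.2 CPM in Foxp3-negative cells, and among other cells at 61.8 and 43.8 CPM and at 122.3 and 103.9 CPM. Foxp3-positive values of the 3 classes thus overlapped, while Foxp3-negative TRBV26 and TRBV23 cells were far above Foxp3-negative other cells. Within Foxp3-negative cells the TRBV26 minus other difference in Id3 was 1.51 and 1.72 (log2, per mouse), and within Foxp3-positive cells it was -0.30 in each mouse. These differences within Foxp3 groups were not tested one by one.

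In Foxp3-positive against Foxp3-negative cells Id3 fell by 3.06 in TRBV26 cells (SE 0.133, adjusted p = 4.97e-12) and fell by 1.13 in other cells (SE 0.105, adjusted p = 7.30e-08), with edgeR over 11719 genes and Foxp3 itself left out. The effect was 1.93 lower in TRBV26 than in other cells when that difference was tested (-1.93, SE 0.180, adjusted p = 6.76e-06), at -1.81 and -2.02 in each mouse alone. It was the only member called in that test, where 3.89% of all genes were (1.95% higher and 1.94% lower).

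Id2 also fell in both classes. It was at 167.4 and 168.7 CPM in Foxp3-positive and 328.1 and 354.2 CPM in Foxp3-negative TRBV26 cells, a difference of -1.02 (SE 0.0749, adjusted p = 5.64e-09). In other cells it was at 150.3 and 155.2 CPM in Foxp3-positive and 330.4 and 359.0 CPM in Foxp3-negative cells, a difference of -1.20 (SE 0.0655, adjusted p = 5.56e-11). The difference between these effects was 0.17 (SE 0.100, adjusted p = 0.412). The Id3 to Id2 ratio of UMIs was 0.299 and 0.209 in Foxp3-positive TRBV26 cells and 1.07 and 0.974 in Foxp3-negative ones, but in other cells it was 0.411 and 0.282 against 0.370 and 0.290.

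The E-protein genes moved little with Foxp3. Tcf12 fell by 0.38 in TRBV26 Foxp3-positive cells (70.8 and 65.4 CPM, against 89.7 and 87.5 CPM in Foxp3-negative cells, SE 0.124, adjusted p = 0.0277), a call lost without the block (adjusted p = 0.0779) and with thinned cells (0.605). In other cells it was at -0.21 (adjusted p = 0.0916), and became called at 1 cell per clonotype (-0.46, adjusted p = 0.00148), with no filter on low counts (-0.24, adjusted p = 0.0347) and with at least 2 Foxp3 UMIs required (-0.28, adjusted p = 0.0276). Tcf3 was not called, at 0.19 in TRBV26 (adjusted p = 0.162) and -0.09 in other cells (adjusted p = 0.380). Counting all members, 3 of 4 were called in TRBV26 cells and 2 of 4 in other cells, where 28.3% (15% higher and 13.3% lower) and 31.8% (16.6% higher and 15.1% lower) of all genes were. Partners had 1 rise (Lmo2) and 2 falls (Lmo4 and Bhlhe40) with Foxp3 in TRBV26 cells, targets 3 and 3, and inputs 5 and 5. In other cells the lists had 1 rise and 4 falls, 4 and 4, and 7 and 3.

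The regulatory T cell list (Foxp3, Il2ra, Ikzf2, Ctla4 and Tnfrsf18) summed to 3199 and 3393 CPM in Foxp3-positive cells, against 504.8 and 467.3 CPM in Foxp3-negative cells. Foxp3 is in this sum and also defined the split, so part of the difference was set in advance. Foxp3-positive cells carried more summed Mki67 and Top2a (525.0 and 326.0 CPM, against 288.7 and 203.7 CPM in Foxp3-negative cells), a higher median of UMIs (6338 and 6597.5 against 5522 and 6166), a lower median share of mitochondrial UMIs (1.18% and 1.18% against 1.74% and 1.82%) and more of the B cell genes (10.8 and 19.02 against 1.14 and 1.91 CPM). Without the cluster led by Hist1h2ae, with other histone and cell division genes, the Id3 effect difference was -1.67 (adjusted p = 2.64e-06). For depth, the thinned value was -1.63 (adjusted p = 2.16e-04). The part of the B cell genes and of the mitochondrial share was not tested. Among thinned Foxp3-positive cells Id3 and Id2 were seen together in 0.552% and 0.701%, below the products of 1.54% and 1.41%. Those joint shares rest on few cells.

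**Figure D4:**
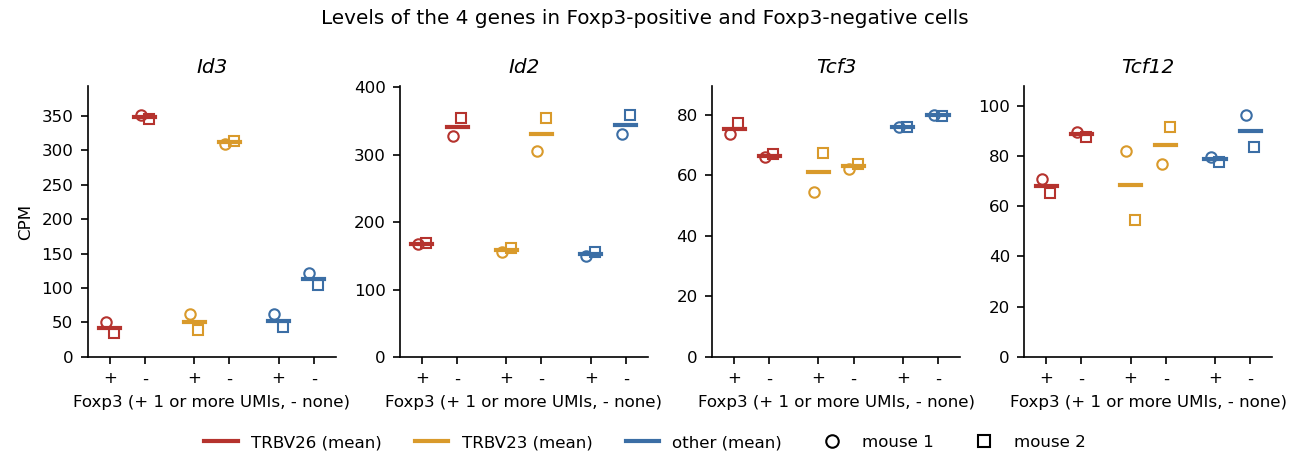
Levels of the 4 genes in CPM (vertical axes, from 0) in Foxp3-positive (+) and Foxp3-negative (-) cells of TRBV26, TRBV23 and other cells, with circles for mouse 1, squares for mouse 2 and bars at the means. Id3 lies between 35.3 and 62.4 CPM in Foxp3-positive cells of every class and between 103.9 and 351.3 CPM in Foxp3-negative cells, and Id2 lies between 150.3 and 168.7 CPM in Foxp3-positive cells and between 306.1 and 359.0 CPM in Foxp3-negative cells.

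To see where in the cell population the members were high, cells were clustered without the 4 genes and without receptor genes into 12 clusters, called by their leading genes. Levels across clusters are a description, as clusters are made from genes that vary with the members. Id3 was at 666.7 and 552.6 CPM in the cluster led by Sostdc1, Gpr183 and B630019A10Rik, which held 25.1% and 24.5% of cells, and at 668.1 and 485.8 CPM in a cluster of 15 and 40 cells led by the interferon genes Ifit1 and Isg15. It was lowest in the clusters led by Spp1 and Klrd1 (5.32 and 4.55 CPM) and by Ccl5 and Gzmk (7.54 and 10.6 CPM), and 64.1 and 38.4 CPM in the cluster led by Foxp3. Free RNA of the same library would be counted in those low clusters too.

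Within the cluster led by Sostdc1 the V gene classes hardly differed in Id3. TRBV26 cells had 672.4 and 575.6 CPM there, TRBV23 cells 660.1 and 539.9 CPM, and other cells 657.3 and 489.9 CPM. TRBV26 cells made up 58.3% and 60.6% of that cluster and TRBV23 cells 25.05% and 21.8%. In the cluster led by Ccl5 and Gzmk, Id3 was at 8.12 and 12.02 CPM in TRBV26 cells and 7.89 and 10.0 CPM in other cells. Inside the clusters led by Sostdc1 and by Ccl5 the Id3 gap between the classes was thus small or absent, with no test made. This did not hold in every cluster. In the cluster led by Ext1, Id3 was at 161.7 and 102.5 CPM in TRBV26 cells against 60.1 and 73.2 CPM in other cells. In that led by Igfbp4 it was at 190.2 and 94.1 CPM (29 and 27 cells) against 98.5 and 63.0 CPM. The order was reversed in the cluster led by Foxp3 (42.8 and 27.5 against 75.3 and 44.9 CPM).

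Id2 was highest in a small cluster led by Ifitm1, Ifitm2 and Ifitm3 with Gzma, of 74 and 127 cells, at 1090 and 1092 CPM, and lowest in the cluster led by Ext1 (110.3 and 107.8 CPM) and the one led by Foxp3 (159.0 and 164.4 CPM). In the clusters low in Id3 it was 328.5 and 337.5 CPM (Spp1 and Klrd1) and 289.5 and 274.2 CPM (Ccl5 and Gzmk). Id2 was therefore present across effector gene clusters in which Id3 was near its lowest. Tcf3 had its highest mean level in the cluster led by the histone gene Hist1h2ae, with Pclaf and Ube2c, at 95.6 and 102.7 CPM, and 57.6 and 59.1 CPM in the cluster led by Sostdc1.

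Tcf12 stood out in 1 cluster. It was at 433.9 and 456.6 CPM in the cluster led by Ext1, Hs6st3 and Maml2, and at 39.4 to 146.6 CPM in every other cluster and mouse. That cluster had a median of 3479.5 and 3984 UMIs per cell, 3.03% and 3.59% mitochondrial UMIs, and 5 leading genes of 282.1 to 731.5 kb in genomic length, and Tcf12 is also long. Its Malat1 level, a nuclear RNA, was 10381 and 12996 CPM, against 1662 to 5900 CPM elsewhere. Whether these cells are damaged or hold mostly nuclear RNA was not tested. Without the 724 cells of that cluster the Tcf12 difference between TRBV26 and other cells was 0.03 (adjusted p = 0.801), and between expanded and single clonotypes of other cells it was -0.45 (adjusted p = 2.04e-04).

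**Figure D5:**
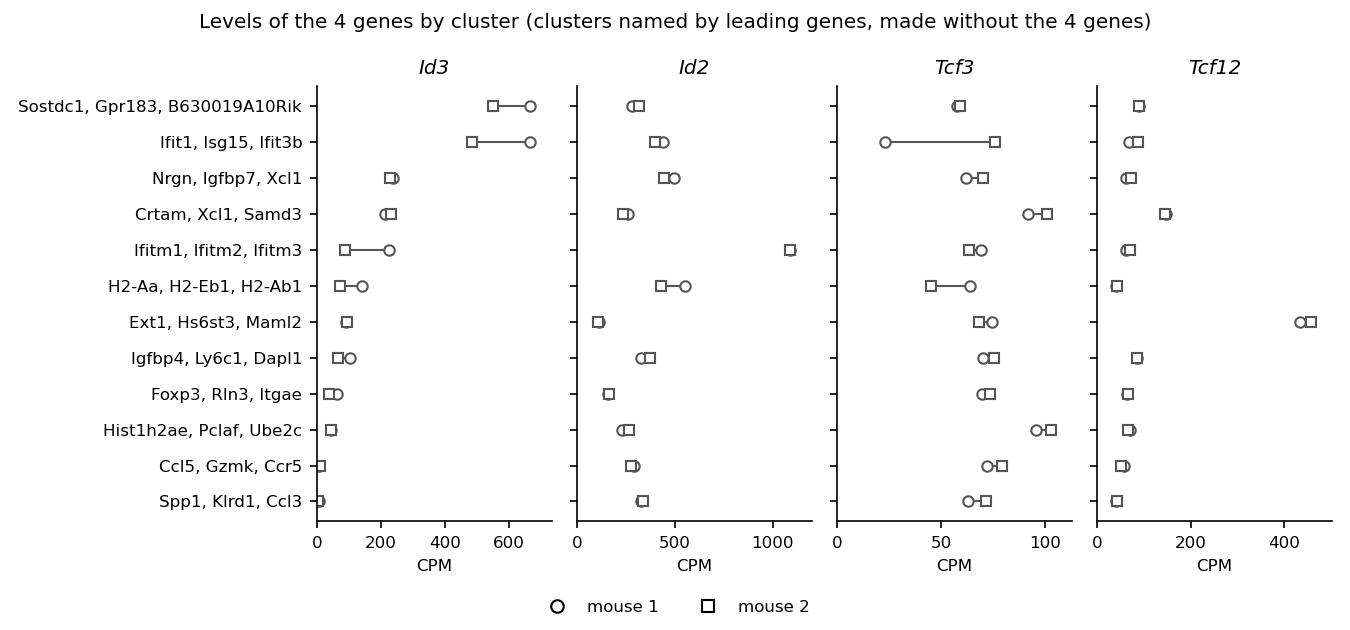
Levels of the 4 genes in CPM (horizontal axes, from 0) in the 12 clusters, called by 3 leading genes and ordered by mean Id3, with circles for mouse 1, squares for mouse 2 and a line joining them. Id3 is highest in the clusters led by Sostdc1 and Ifit1, Id2 in the cluster led by Ifitm1 (1090 and 1092 CPM) and Tcf12 in the cluster led by Ext1 (433.9 and 456.6 CPM).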

How the data were processed

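Per the submitters' processing notes, reads were processed with Cell Ranger 7.0.1 on mm10 (GRCm38). The authors deposited, for each host, a matrix of UMI counts per gene and cell barcode and a list of receptor contigs; whether intronic reads were counted is not given in the sources used here. From these counts, cells were filtered as stated, and 708 and 702 barcodes with 2 or more β contigs were left out as possible doublets, with no doublet caller run. Levels are UMIs of a gene per 1000000 UMIs of the group (CPM). Counts were summed per mouse and class and tested with edgeR 4.0.16 (limma 3.58.1, R 4.3.3; TMM, filterByExpr, quasi-likelihood) with the mouse as a block, because sums of 1 mouse come from the same animal. Calls are at a Benjamini-Hochberg adjusted p below 0.05. Fits over V gene classes had 6 sums and 2 residual degrees of freedom, those over size and over Foxp3 12 sums and 5. Receptor segment genes were left out, as was Foxp3 from the Foxp3 fits. Alternatives used DESeq2 1.42.0, other filters, 1 cell per clonotype and cells thinned to 2000 UMIs. Clusters were made with scanpy 1.11.5 in Python 3.11.15 (numpy 2.4.6, pandas 2.3.3), and intervals are Clopper-Pearson, from scipy 1.17.1. The code was tested on simulated data.

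Genes named are the 4 members, the 2 genes of each list with the smallest p in TRBV26 against other cells, and the 5 genes most correlated with Id3 and with Id2, of genes with a mean of at least 20 CPM; list genes given with a count are named by their call. The lists were partners and cofactors (Id1, Id4, Lyl1, Tal1, Ascl2, Bhlhe40, Bhlhe41, Lmo2, Lmo4, Ldb1, Cbfa2t2, Cbfa2t3, Ep300 and Crebbp), targets and inputs. Members and lists were chosen with earlier results of these data known. A few single-gene results are not reported here.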

Additional observations from a re-analysis of the deposited data

Results flagged for a closer look

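The effect of Foxp3 on Id3 differed between V gene classes. Foxp3-positive TRBV26 cells had 42.7 ± 10.4 CPM of Id3 and Foxp3-negative ones 348.2 ± 4.43 CPM, whereas Foxp3-positive other cells had 52.8 ± 12.7 CPM and Foxp3-negative other cells 113.1 ± 13.0 CPM (SD, n = 2 mice). The TRBV26 effect minus the other effect was -1.93 (edgeR, adjusted p = 6.76e-06), in the same direction in 2 of 2 mice. It was called in 11 of 11 alternatives, between -2.52 and -1.63.

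The effect of clonotype size also differed between TRBV26 and other cells for both inhibitor genes. For Id2 the difference was -0.72 (edgeR, adjusted p = 8.88e-05), with a lower level in expanded TRBV26 clonotypes and a higher one in expanded clonotypes of other cells in 2 of 2 mice. For Id3 it was -0.55 (edgeR, adjusted p = 0.00872), a call lost without the mouse block (adjusted p = 0.189) and with clonotypes of 5 or more cells as expanded (adjusted p = 0.0647). Among single clonotypes Id2 was higher in TRBV26 than in other cells by 0.60 and 0.36 (log2, per mouse), and among expanded ones it differed by -0.23 and -0.26, values with no test of their own. Foxp3-positive cells were 11.1% and 17.5% of expanded against 6.32% and 9.81% of single TRBV26 clonotypes. In other cells they were 16.8% and 16.6% of expanded against 37.7% and 36.1% of single ones. The part of these shares in the size effects was not tested.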

How the results depend on the processing

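The Id3 calls of TRBV26 and TRBV23 against other cells were kept in 11 of 11 alternatives with a test, at 1.52 to 1.70 and 1.38 to 1.60, and member calls that were lost are given in the report with their values. Counts of genes called depended on the setting, and the cause was not tested. Thinning leaves fewer UMIs and 1 cell per clonotype leaves fewer cells. With 1 cell per clonotype the counts were 2971 for TRBV26 and 2253 for TRBV23 against other cells, higher than with all cells. Without the mouse block, counts fell to 567 of 2453 for TRBV26 against other cells, 418 of 1698 for TRBV23 against other cells, 64 of 892 and 1527 of 2790 for size in TRBV26 and other cells, 362 of 1287 for their difference, 2395 of 3722 for Foxp3 in other cells and 58 of 456 for the Foxp3 difference; between TRBV26 and TRBV23 edgeR then called 0 genes (263 at an unadjusted p under 0.05, and 3 by DESeq2 with the block), against 6. With DESeq2 the first 5 of these counts were 905, 748, 448, 1413 and 613. With thinned cells they were 1564, 996, 319, 1601 and 638, and for Foxp3 they were 1253 in TRBV26 cells (1136 of them among the 3314 calls with all UMIs), 2060 in other cells and 166 for the difference. With 1 cell per clonotype the size counts were 140, 1003 and 132. V genes as separate classes gave 890 and 605 calls for TRBV26 and TRBV23 against other cells. No filter on low counts gave 83 between TRBV26 and TRBV23 and 721 for the Foxp3 difference. Leaving out the cluster led by Hist1h2ae, chosen after seeing the data, gave 17 between TRBV26 and TRBV23 and 499 for size in TRBV26 cells.

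Directions turned for uncalled differences near 0. Without the cluster led by Ext1, also chosen after seeing the data, Tcf12 was at 0.026 in TRBV26 against other cells, 0.057 in TRBV23 against other cells and -0.030 between them. With V genes separate, Tcf12 was at 0.026 in TRBV26 and Id2 at -0.032 in TRBV23 against other cells. With thinned cells Tcf3 was at -0.00081 between TRBV26 and TRBV23, at -0.073 and 0.050 for size in TRBV26 and other cells, at -0.12 for their difference and at -0.048 for Foxp3 in TRBV26 cells. Without the cluster led by Hist1h2ae, Tcf3 was at -0.018 for size in TRBV26 cells. With 1 cell per clonotype, Id3 was at 0.034 for size in other cells. Leaving out either mouse leaves no residual degrees of freedom among animals, so it gives values with no test and no counts. The Id3 differences in 1 mouse were 1.56 to 1.69 for TRBV26 against other cells and -2.02 to -1.81 for the Foxp3 difference. The sign of uncalled differences also turned between mouse 1 alone and mouse 2 alone: Tcf12 was at -0.25 and 0.065 in TRBV23 and at -0.072 and 0.027 in TRBV26 against other cells, and at 0.18 and -0.039 between them, where Id2 was at 0.11 and -0.016. For size, Tcf3 was at 0.093 and -0.049 in TRBV26 cells, at 0.028 and -0.031 in other cells and at 0.065 and -0.018 for their difference. Depth limits single clones, where 3 UMIs come to 8.03 to 25.5 CPM in the clones shown.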

Other observations

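Over all V gene classes, Id3 in Foxp3-positive cells averaged 41.5 ± 8.49 CPM in expanded and 63.6 ± 21.1 CPM in single clonotypes. In Foxp3-negative cells it averaged 156.3 ± 10.9 CPM in expanded and 314.7 ± 48.9 CPM in single clonotypes (SD, n = 2 mice). The Id3 to Id2 ratio of UMIs in TRBV26 clonotypes of 20 or more cells was 0.179 in mouse 1 and 0.0342 in mouse 2. These values rest on 3 clones in mouse 1, of which 1 was 90% Foxp3-positive, and 1 clone in mouse 2. In clonotypes of that size among other cells the ratio was also low, at 0.218 and 0.196. The only TRBV23 clone of that size, in mouse 2, had 0.856. In the cluster led by Nrgn, Igfbp7 and Xcl1, Id3 was at 272.5 and 230.3 CPM in TRBV26 cells, 234.7 and 216.0 CPM in TRBV23 cells and 177.4 and 232.3 CPM in other cells, and Id2 was at 494.2 and 443.1 CPM over all its cells. The cluster led by Crtam and Xcl1 had 146.6 and 144.1 CPM of Tcf12 and 91.9 and 101.1 CPM of Tcf3, the second highest level of both E-protein genes among the 12 clusters. These are values of clusters and clones and had no test.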
